A study of Sus scrofa with 12 samples.

Results

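The RNA of 10 genes that mark the endothelium of the liver sinusoids (STAB1, STAB2, LYVE1, KDR, TEK, PECAM1, VWF, CDH5, ENG and EMCN) was described in pig liver across breed and housing temperature. The genes were taken by name from a table of 21169 genes. For 9 of the 10 the symbol stands in the table, and the STAB2 row (ENSSSCG00000000854) has an empty symbol and was recognised by the gene number in its description. All 10 were among the 13532 genes abundant enough to test. They held 0.176% to 0.233% of the gene counts of a library.

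The livers came from 4 groups of 3 pigs, each pig sampled on day 15. They were Hezuo pigs kept in the cold (-15 ± 2 °C), Hezuo pigs at room temperature (23 ± 2 °C), Bama pigs in the cold and Bama pigs at room temperature. Both are small Chinese breeds, and the study asked which RNAs go with the cold resistance of the Hezuo breed. Sequencing used whole-liver RNA without its ribosomal fraction, so endothelial RNA is a small share of each library, and fewer endothelial cells and less RNA per cell cannot be told apart.

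Liver sinusoids are capillaries lined by fenestrated endothelial cells that lack a continuous basement membrane. These cells clear macromolecules from the portal blood through scavenger receptors, and their identity depends on growth factor signals such as VEGF, angiopoietins and BMP9. When they lose that identity they take on features of the continuous capillaries of other tissues, a change called capillarisation.

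Libraries held 20041285 to 30188037 gene counts. The share of ALB, the serum albumin transcript, ranged from 1.53% to 12.01%, and the TMM scaling factors, which adjust for such differences in composition, were 0.874 to 0.957 in Hezuo libraries and 0.98 to 1.2 in Bama libraries. RNA of Y-linked genes was present in the 6 Hezuo libraries (1345 to 2419 counts) and in Bama cold replicates 1 and 3 (2310 and 3799 counts), and absent or nearly so in Bama cold replicate 2 and the 3 Bama room temperature libraries (0 to 3 counts). The labels give no sex, so breed and the presence of Y-linked RNA cannot be fully told apart. At room temperature the 2 coincide. Within Bama, Y-linked RNA was present only in cold libraries. Cold in Bama, cold averaged over breeds and the breed difference in cold response therefore cannot be fully told apart from it either.

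Levels between genes were compared on the authors' FPKM, which divides by gene length. KDR, the main VEGF receptor of endothelium, had the highest mean over the 12 libraries, 56.4 ± 6.49 FPKM (SD). It was followed by STAB2 (52.2 ± 12.5), ENG (50.9 ± 9.35), STAB1 (49.5 ± 8.26), CDH5 (46.6 ± 11.6), TEK (39.4 ± 5.07), PECAM1 (37.7 ± 6.27), LYVE1 (28.6 ± 14.1), VWF (15.0 ± 9.41) and EMCN (1.95 ± 0.706 FPKM). Each gap between neighbours in this order down to VWF was smaller than the SD of the more variable neighbour over the 12 libraries. By this measure neighbours among the first 8 are not resolved gene by gene. VWF was 9th by mean in each of the 4 groups. It lay above LYVE1 only in Bama room temperature replicate 3 (22.71 against 22.12 FPKM), and below the genes before LYVE1 in every library. EMCN lay below each of the other 9 in every library, with 0.96 to 3.59 FPKM against a lowest VWF value of 5.19 FPKM. Across libraries VWF and LYVE1 varied most, with coefficients of variation of 62.7% and 49.1%, and KDR varied least, with 11.5%.

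The label was checked against other markers. CLEC4G, a lectin of sinusoidal endothelium, had a median of 49.5 FPKM, OIT3 48.1, FCN2, a secreted lectin, 145 and DNASE1L3, a secreted nuclease, 13.2 FPKM. Defining markers known from mouse or human liver that were at or near 0 here were CLEC1B (median 0.025 FPKM), CRHBP (0.09 FPKM) and FCN3 (0 in every library). PLVAP, the diaphragm protein of continuous fenestrated capillaries, had a median of 81.3 FPKM, and CD34, a marker of continuous vessels, 0.9 FPKM.

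**Figure D1:**
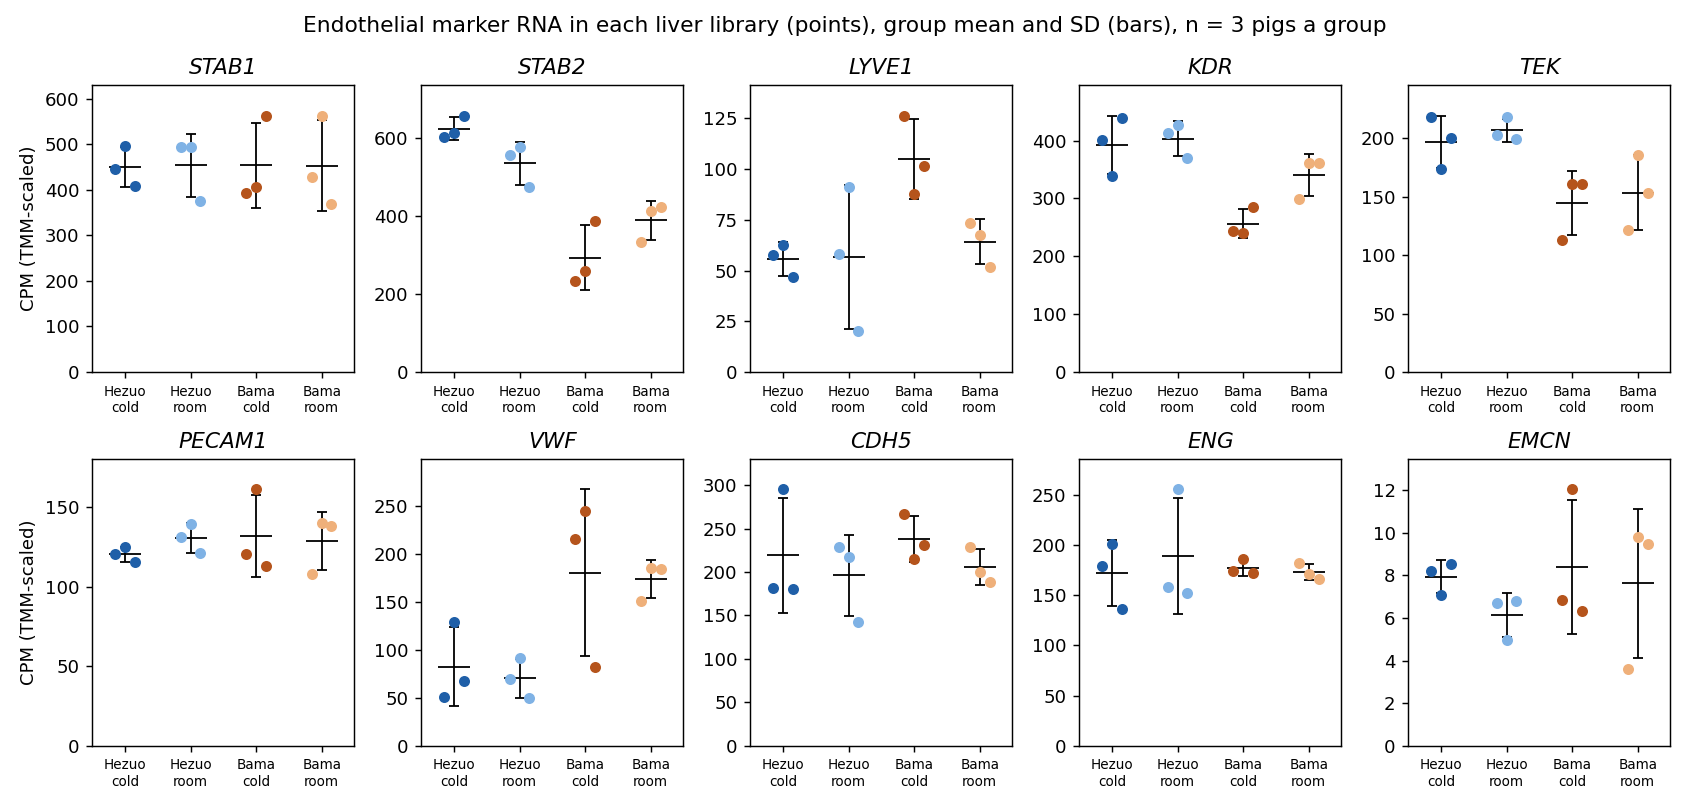
TMM-scaled CPM (y axis, from 0) of each of the 10 markers in the 12 libraries. Points are libraries, and black bars give the mean and SD of the 3 pigs of a group. The 6 Hezuo libraries lie above the 6 Bama libraries for STAB2, while the groups of STAB1, PECAM1, CDH5 and ENG overlap.

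Among the scavenger receptors STAB2 stood out between breeds. STAB2, the endocytic receptor through which sinusoidal endothelium clears hyaluronan, had 600.4, 610.8 and 655.9 CPM (TMM-scaled counts per 1e6 counts of a library) in Hezuo cold livers, against 554.4, 577 and 472.3 CPM in Hezuo room temperature livers. In Bama livers it had 233.5, 258 and 386.7 CPM in the cold, against 331.8, 410.9 and 423.4 CPM at room temperature. All 6 Hezuo libraries thus lay above all 6 Bama libraries, which was so for 1 of the 10 markers and for 4.23% of the genes tested. On the authors' FPKM, which are not TMM-scaled, the breeds did overlap, with 50.3 to 69.8 FPKM in Hezuo and 32.3 to 53.1 FPKM in Bama.

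In the cold STAB2 was higher in Hezuo than in Bama, with a log2 fold change of 1.09 and an SE of 0.19 (adjusted p = 0.0203 by edgeR's quasi-likelihood test), a 2.13-fold difference. Errors of fold changes below are also SE. At room temperature the difference was 0.46 ± 0.19 (adjusted p = 0.217), which did not pass, and without TMM scaling it was 0.24 (adjusted p = 0.391). Averaged over both temperatures it was 0.77 ± 0.14 (adjusted p = 0.00772). This average was added after the values had been seen.

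STAB1, the paralogue that shares many ligands with STAB2 and is also made by macrophages, had 408.4 to 495.6 CPM in Hezuo cold livers, 374.6 to 494.7 in Hezuo room temperature livers, 393.1 to 562.1 in Bama cold livers and 369.5 to 562.8 CPM in Bama room temperature livers. All 4 groups overlapped. The Hezuo over Bama log2 fold change of STAB1 was -0.01 ± 0.20 in the cold, with a 95% interval of -0.45 to 0.43, which does not reach the value of STAB2. The ratio of STAB2 to STAB1 on the FPKM scale was 1.437, 1.326 and 1.713 in Hezuo cold livers, against 0.631, 0.655 and 0.731 in Bama cold livers. At room temperature it was 1.206, 1.263 and 1.338 in Hezuo livers, against 0.827, 0.762 and 1.222 in Bama livers. Bama room temperature replicate 3 was the one Bama library whose ratio reached the lowest Hezuo values, and this ratio, formed after the values were seen, was not tested.

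LYVE1, a hyaluronan receptor of lymphatic and sinusoidal endothelium, had 57.5, 62.8 and 46.7 CPM in Hezuo cold livers, against 58.1, 91.1 and 20.3 CPM in Hezuo room temperature livers. It had 126.3, 87.5 and 101.7 CPM in Bama cold livers, against 73.3, 67.4 and 51.8 CPM in Bama room temperature livers. Every Bama cold library lay above every Bama room temperature library and above every Hezuo cold library, and Hezuo room temperature replicate 3 was the lowest of all 12. None of these differences passed: LYVE1 differed by 0.71 ± 0.40 in the cold against room temperature in Bama (adjusted p = 0.424) and by -0.92 ± 0.40 between Hezuo and Bama in the cold (adjusted p = 0.221).

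Of the growth factor receptors, KDR had 400.5, 339.2 and 438.7 CPM in Hezuo cold livers, against 244.1, 239.6 and 284.7 CPM in Bama cold livers. At room temperature it had 413.6, 426.4 and 369.7 CPM in Hezuo livers, against 299.1, 360.8 and 361.9 CPM in Bama livers. The breeds did not overlap at either temperature, and within Bama the cold libraries all lay below the room temperature ones. On the authors' FPKM the breeds overlapped at room temperature, with 56.0 to 62.8 FPKM in Hezuo and 51.7 to 64.7 FPKM in Bama. KDR was higher in Hezuo than in Bama in the cold by 0.62 ± 0.15 (adjusted p = 0.0497), at the edge of the threshold. Of 12 fits that each left out 1 library, the only one that kept this call was the fit without Bama cold replicate 3 (adjusted p = 0.0497 to 0.16 over the 12 fits). It also ended without TMM scaling, when the fold change was 0.31 (adjusted p = 0.127). At room temperature the difference was 0.24 ± 0.15 (adjusted p = 0.392), and the average over temperatures 0.43 ± 0.11 (adjusted p = 0.0243), which without TMM scaling was 0.17 (adjusted p = 0.197).

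TEK, the angiopoietin receptor, had 218, 173.9 and 200.2 CPM in Hezuo cold livers, against 112.8, 160.7 and 160.8 CPM in Bama cold livers. At room temperature it had 203.1, 218.1 and 199.6 CPM in Hezuo livers, against 121.6, 186.1 and 153.1 CPM in Bama livers. On this TMM scale the breeds were again apart at each temperature. On the authors' FPKM they overlapped in the cold, with 37.5 to 46.7 FPKM in Hezuo and 31.5 to 42.5 FPKM in Bama. At room temperature they also overlapped, with 40.2 to 44.3 FPKM in Hezuo and 28.8 to 40.8 FPKM in Bama. The fold changes were 0.45 ± 0.18 in the cold (adjusted p = 0.191) and 0.43 ± 0.18 at room temperature (adjusted p = 0.222), and neither passed. The average over temperatures was 0.44 ± 0.13 (adjusted p = 0.0472), a call that remained in 2 of 12 fits with 1 library left out, namely replicate 3 of the Bama cold group or replicate 2 of the Bama room temperature group. Without TMM scaling this average was 0.18 (adjusted p = 0.245).

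ENG, the co-receptor for BMP9, had 136.5 to 200.9 CPM in Hezuo cold livers, 152.2 to 255.1 in Hezuo room temperature livers, 171.5 to 186.2 in Bama cold livers and 166.4 to 181.7 CPM in Bama room temperature livers. The narrow Bama ranges lie inside both Hezuo ranges.

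VWF, which tethers platelets and is scarcer in sinusoids than in larger vessels, went the other way between breeds. It had 51.1, 129.1 and 67.4 CPM in Hezuo cold livers, against 215.4, 244.2 and 81.6 CPM in Bama cold livers. At room temperature it had 70.0, 91.1 and 50.1 CPM in Hezuo livers, against 151, 185.8 and 184 CPM in Bama livers. The breeds were apart at room temperature and overlapped in the cold through Hezuo replicate 2 and Bama replicate 3. The Hezuo over Bama log2 fold change was -1.30 ± 0.42 at room temperature (adjusted p = 0.129) and -1.13 ± 0.42 in the cold (adjusted p = 0.159), neither of which passed. Other settings did call one of them. At room temperature DESeq2 (-1.31, adjusted p = 0.0238) and edgeR on only the groups compared (-1.30, adjusted p = 0.0397) called it, and in the cold edgeR without TMM scaling did (-1.45, adjusted p = 0.047). Averaged over temperatures VWF was lower in Hezuo by -1.22 ± 0.30 (adjusted p = 0.0258). Platelets also carry VWF RNA, and the summed level of the platelet and megakaryocyte markers was 71.8 to 107.8 CPM in Hezuo cold livers, 78.9 to 118 in Hezuo room temperature livers, 64.2 to 107.8 in Bama cold livers and 68.2 to 85.3 CPM in Bama room temperature livers, so it overlapped between breeds.

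The junction proteins PECAM1 and CDH5, which hold endothelial cells together, were not called in any comparison by the main test. PECAM1 had 115.4 to 125 CPM in Hezuo cold livers, 120.9 to 139.3 in Hezuo room temperature livers, 113.2 to 161.1 in Bama cold livers and 107.8 to 139.8 CPM in Bama room temperature livers. On the authors' FPKM the breeds were apart for PECAM1 in the cold, with 30.7 to 36.7 FPKM in Hezuo and 37.1 to 53 FPKM in Bama. CDH5, the adherens junction cadherin, had 180.7 to 295 CPM in Hezuo cold livers, 142.9 to 228.9 in Hezuo room temperature livers, 214.7 to 266.7 in Bama cold livers and 188.9 to 228.8 CPM in Bama room temperature livers. EMCN, a sialomucin of venous and capillary endothelium, had 7.07 to 8.53 CPM in Hezuo cold livers, 4.95 to 6.79 in Hezuo room temperature livers, 6.33 to 12.04 in Bama cold livers and 3.58 to 9.79 CPM in Bama room temperature livers. Between breeds, averaged over temperatures, the fold changes were -0.05 ± 0.11 for PECAM1, -0.09 ± 0.16 for CDH5, 0.04 ± 0.14 for ENG and -0.20 ± 0.25 for EMCN, and none passed.

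Each count of markers called stands beside the share of all genes called in the same comparison. In the cold 2 of 10 (STAB2 and KDR, both higher in Hezuo) were called between Hezuo and Bama, where 2.76% of all genes tested were called. At room temperature 0 of 10 were called against 1.08% of all genes, with 3 at an unadjusted p under 0.05 and 1 called by DESeq2. Averaged over temperatures 4 of 10 were called (STAB2, KDR and TEK higher, VWF lower), where 12% of all genes were. The marker libraries of the breeds did not overlap for 4 of 10 in the cold (STAB2, KDR, TEK and LYVE1), against 25.2% of all genes, and for 4 of 10 at room temperature (STAB2, KDR, TEK and VWF), against 23.8%. These counts and shares are on TMM-scaled CPM. On FPKM, STAB2, KDR and TEK overlapped at room temperature. In the cold TEK overlapped on FPKM, while PECAM1 was apart. The median log2 fold change of the 10 was -0.06 in the cold and 0.01 at room temperature, against -0.007 and -0.003 over all genes tested.

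The breed differences stand beside differences in other cell types. Erythroid markers had a median Hezuo over Bama log2 fold change of 2.40 in the cold and 1.48 at room temperature, with all 9 tested markers positive at both. T, NK and B cell markers had medians of -0.71 and -1.15, hepatocyte markers 0.50 and 0.43, and Kupffer cell and macrophage markers -0.35 and -0.31. Summed T, NK and B cell markers were 192.9 to 265.7 CPM in Hezuo cold livers and 177.3 to 270.2 CPM in Hezuo room temperature livers, below the 317.9 to 551.4 CPM of Bama cold livers and the 275.1 to 532.8 CPM of Bama room temperature livers. The part of these cell types in the marker differences was not tested. With the presence of Y-linked RNA as a covariate, STAB2 in the cold had a fold change of 1.01 (adjusted p = 0.0585) and KDR 0.57 (adjusted p = 0.132), and 0 of 10 markers were called there or in the average over temperatures.

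**Figure D2:**
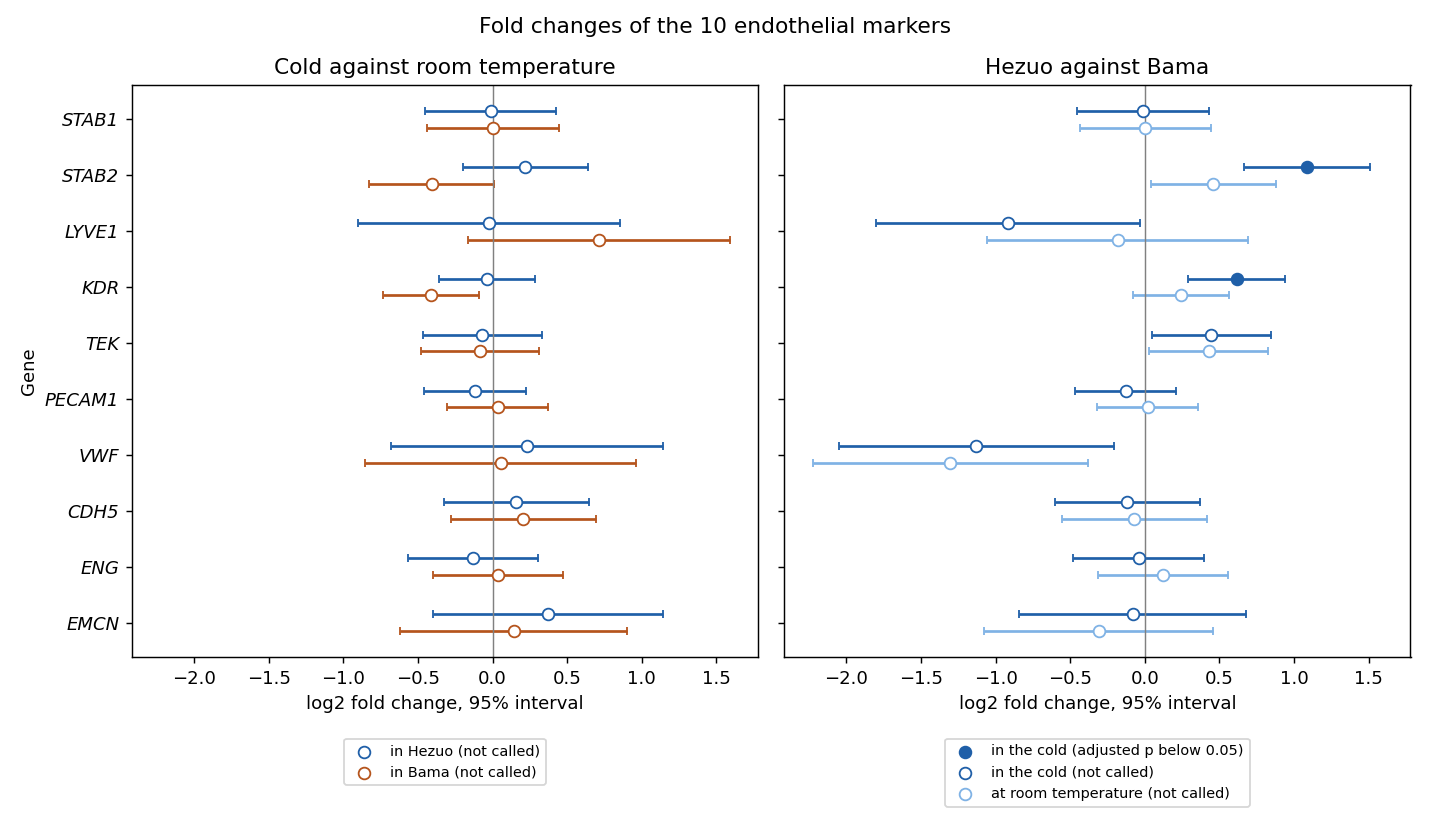
Log2 fold changes of the 10 markers with 95% intervals, for cold against room temperature in each breed (left) and for Hezuo against Bama at each temperature (right). Filled circles passed an adjusted p of 0.05, which only STAB2 and KDR did, both in Hezuo against Bama in the cold.

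On day 15 none of the 10 markers had a called change in the cold against room temperature. In Hezuo pigs 0 of 10 were called against 0.281% of all genes, with 0 at an unadjusted p under 0.05. In Bama pigs 0 of 10 were called against 0.924%, with 1 at an unadjusted p under 0.05. Averaged over breeds 0 of 10 were called against 3.89%, again with 0 at an unadjusted p under 0.05. DESeq2 also called 0 in each. Y-linked RNA was present in Bama cold replicates 1 and 3 and absent or nearly so in the Bama room temperature libraries. The Bama and averaged comparisons cannot fully set it apart from cold.

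The 1 in Bama was KDR, with a log2 fold change of -0.41 ± 0.15 and an adjusted p of 0.208. STAB2 had -0.41 ± 0.19 in Bama (adjusted p = 0.331) and 0.22 ± 0.19 in Hezuo (adjusted p = 0.605). The Bama value of STAB2 was -0.27 without Bama cold replicate 1 and -0.66 without Bama cold replicate 3, and was called in neither fit. The intervals show how large a response the data leave room for. For STAB2 they run from -0.20 to 0.64 in Hezuo and from -0.83 to 0.01 in Bama, for PECAM1 from -0.46 to 0.22 in Hezuo and from -0.31 to 0.37 in Bama. For VWF they are wider, from -0.68 to 1.14 in Hezuo and from -0.85 to 0.96 in Bama.

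The cold and room temperature libraries did not overlap for 2 of 10 markers in Hezuo (STAB2 and EMCN, both higher in the cold), against 21.8% of all genes. They did not overlap for 2 of 10 in Bama (LYVE1 higher and KDR lower in the cold), against 21.3%. Both shares are close to those of all genes.

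Whether Hezuo and Bama responded differently to cold was tested directly, and 0 of 10 markers were called against 0.00739% of all genes. STAB2 came nearest, with a difference of 0.63 ± 0.27 on the log2 scale (unadjusted p = 0.0396, adjusted p = 0.593), and was the 1 marker with an unadjusted p under 0.05. KDR had 0.37 ± 0.21 (adjusted p = 0.723). DESeq2 called 0. This difference and the breed comparison in the cold use the same cold libraries, so they are not separate evidence.

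Some hepatocyte and stellate cell markers were called in the cold when averaged over breeds. Of 16 hepatocyte markers 4 were called lower and 0 higher, while 9 of the 16 had a positive value and the median was 0.08. Of 17 stellate and mesenchymal markers 4 were called lower and 0 higher, with a median of -0.28, where 3.89% of all genes were called. SERPINA1 (-0.85 ± 0.14, adjusted p = 0.0137), TF, AHSG and TTR, all secreted by hepatocytes, fell, and so did the collagen genes COL1A1, COL1A2 and COL3A1 (-1.25 ± 0.23 for the last, adjusted p = 0.0194) and DCN of stellate and other mesenchymal cells. With 1 library left out, the calls of SERPINA1, TF and COL3A1 were kept in 12 of 12 fits, COL1A2 in 9, COL1A1 in 6, DCN in 5, AHSG in 3 and TTR in 2. VSIG4, a complement receptor of Kupffer cells, rose by 0.82 ± 0.16 (adjusted p = 0.0215), and 14 of the 17 tested Kupffer cell and macrophage markers were positive. With Y-linked RNA as a covariate none of these hepatocyte, stellate and Kupffer cell calls was kept, though each fold change kept its sign. SERPINA1 was then -0.68 (adjusted p = 0.169), TF -0.99 (adjusted p = 0.184), COL3A1 -1.09 (adjusted p = 0.212) and VSIG4 0.68 (adjusted p = 0.207).

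The 10 markers did not vary as a block over the 12 libraries. Of their 45 pairs, 23 had a positive Pearson correlation of log2 CPM, and the median was 0.03. STAB2, KDR and TEK went together, with correlations of 0.91 for STAB2 and KDR, 0.81 for STAB2 and TEK and 0.80 for KDR and TEK. After subtraction of each group's mean these were 0.76, 0.61 and 0.63. LYVE1 and CDH5 correlated at 0.76 and, within groups, at 0.74. VWF ran against the first 3 genes, at -0.73 with STAB2 and -0.41 within groups. These values describe 12 libraries that share scaling and composition, and the groups pull the unadjusted ones apart.

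**Figure D3:**
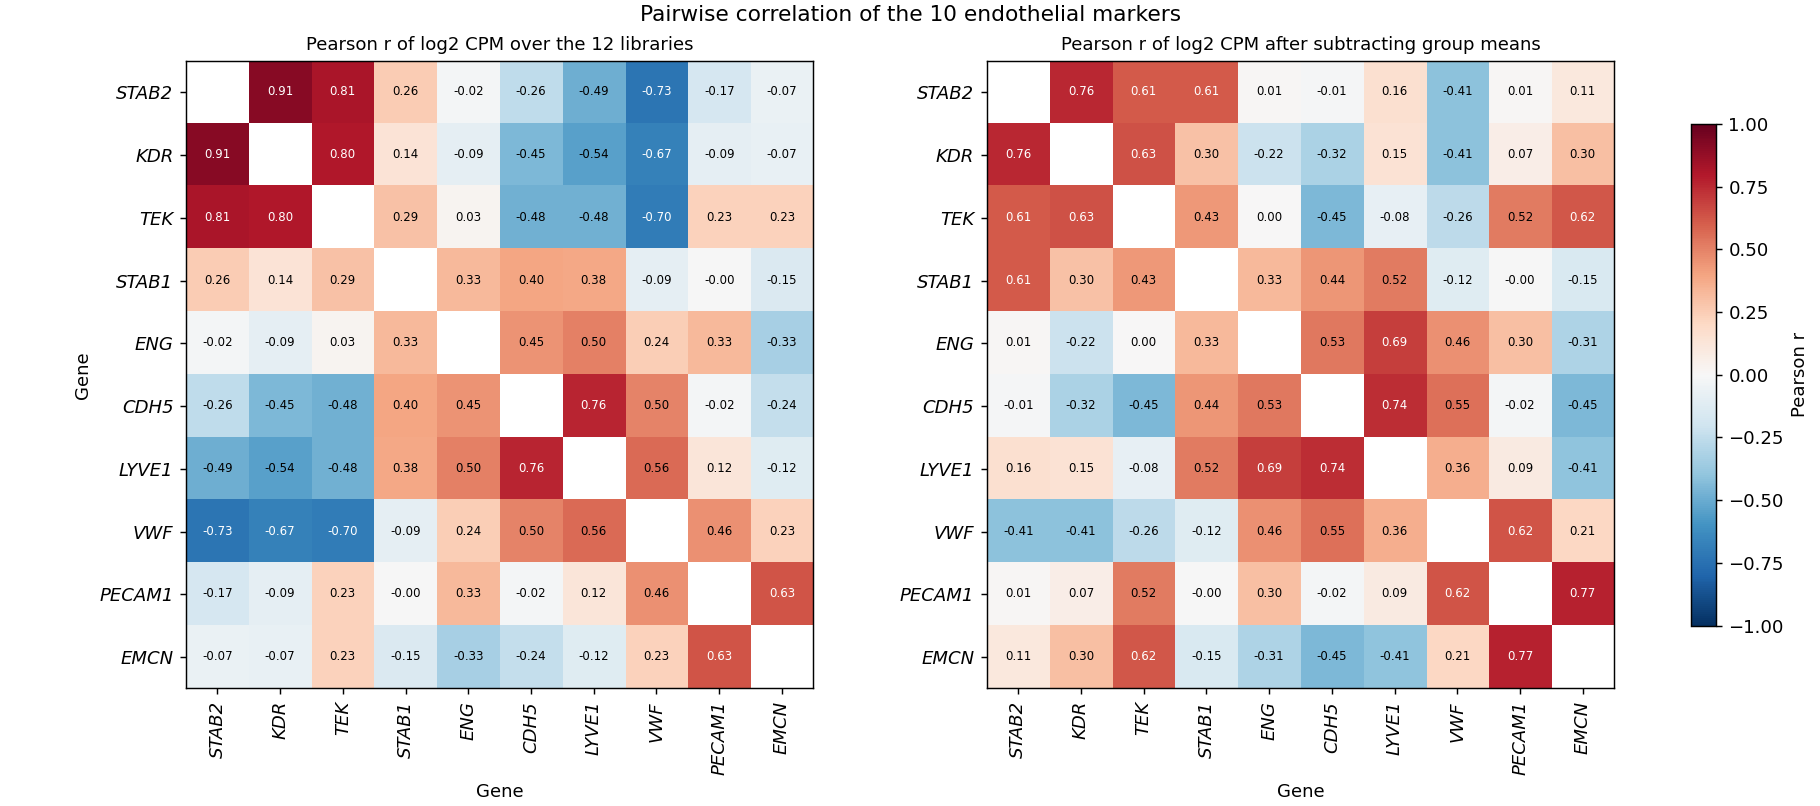
Pearson correlation of log2 CPM for each pair of the 10 markers, over the 12 libraries (left) and after subtracting group means (right). STAB2, KDR and TEK form a block at 0.80 to 0.91 on the left and 0.61 to 0.76 on the right.

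The genes outside the set whose level followed the mean of the 10 standardised markers most closely over the 12 libraries were P2RX6 (Pearson r = 0.855), DNAJC17 (0.843), TJP1 (0.84), CTNNBIP1 (0.84) and SBSN (0.83). They are the top of a ranking of all other genes tested, where high values are found by selection, and were not tested. The mean itself is taken over markers that did not vary as a block.

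Other endothelial genes were read from 8 lists with 158 genes, of which 146 were tested. In the cold against room temperature, averaged over breeds, 2 fell and 0 rose (1.37% of those tested, against 3.89% of all genes). LAMB1, a laminin chain of vascular basement membrane, had 73.4, 55.4 and 55.3 CPM in Hezuo cold livers, against 109, 103.8 and 105.3 CPM in Hezuo room temperature livers. In Bama livers it had 73.2, 89.5 and 61.2 CPM in the cold, against 94.96, 86.6 and 129.2 CPM at room temperature. The Hezuo groups were apart and the Bama groups overlapped, and LAMB1 fell by 0.63 ± 0.13 on the log2 scale (adjusted p = 0.0286).

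RELN, a secreted glycoprotein of lymphatic endothelium that stellate cells also make, fell by 0.48 ± 0.12 (adjusted p = 0.042), a call kept in 1 of 12 fits with 1 library left out, while that of LAMB1 was kept in 4. With Y-linked RNA as a covariate RELN was -0.46 (adjusted p = 0.313) and LAMB1 -0.50 (adjusted p = 0.283), and neither was called. PALMD at -1.03 ± 0.27 (adjusted p = 0.0575) and NOS3, the endothelial nitric oxide synthase, at 0.48 ± 0.15 (adjusted p = 0.086) did not pass. The lists of continuous vessel markers and of sinusoidal receptors had medians of -0.20 and -0.08, against -0.01 over all genes tested.

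Between Hezuo and Bama in the cold, 4 of the 146 were lower in Hezuo and 0 higher (2.74%, against 2.76% of all genes). HEY1, a transcription factor downstream of Notch in endothelium, had 1.24, 2.93 and 1.51 CPM in Hezuo cold livers, against 6.59, 6.07 and 4.99 CPM in Bama cold livers, and a fold change of -1.63 ± 0.32 (adjusted p = 0.0262). ICAM2, an adhesion molecule, had 25.1, 29.9 and 25.3 CPM in Hezuo cold livers, against 60.5, 36.1 and 47.3 CPM in Bama cold livers (-0.84 ± 0.17, adjusted p = 0.0265). The groups were apart for both genes. MMRN1, a protein of endothelial and platelet granules, was lower by -1.42 ± 0.31 (adjusted p = 0.0356), and GNG11, a G protein subunit, by -0.60 ± 0.14 (adjusted p = 0.0474). With 1 library left out these calls were kept in 8 of 12 fits for HEY1, 9 for ICAM2, 7 for MMRN1 and 2 for GNG11.

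At room temperature 1 of the 146 was called between Hezuo and Bama (0.685%), the lectin receptor gene CD209. It had 0.17, 0.045 and 0.24 CPM in Hezuo livers, against 0.53, 27.9 and 48.4 CPM in Bama livers, so that the difference rests on Bama replicates 2 and 3. The call was kept in 2 of 12 fits with 1 library left out. CD209 has similar neighbours in its lectin family, and whether reads were shared between them was not tested.

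Averaged over temperatures, 17 of the 146 were called between Hezuo and Bama, 4 higher and 13 lower (11.6%, against 12% of all genes). WNT9B, a Wnt ligand that endothelium of the central vein secretes in mouse liver, had 2.13 to 5.12 CPM over the 6 Hezuo livers and 0.82 to 2.00 CPM over the 6 Bama livers, and was higher by 1.53 ± 0.29 (adjusted p = 0.00922). The other higher genes were CTSL, a lysosomal protease (0.78 ± 0.19), CXCL12, a chemokine (0.48 ± 0.13), and TIE1, the partner receptor of TEK (0.39 ± 0.11, adjusted p = 0.0435). The list of endothelial transcription factors had 4 lower members of 21 and 0 higher, namely MAF (-0.39 ± 0.10), a regulator of sinusoidal identity in mouse and human cells, ELK3 (-0.41 ± 0.11), FLI1 (-0.43 ± 0.12) and TFEC (-1.11 ± 0.30). RAMP2, TMEM100 and VCAM1 were also lower, VCAM1 at -0.78 ± 0.18 (adjusted p = 0.0214). So were MMRN1 (-1.23 ± 0.22), HEY1 (-1.18 ± 0.22), ICAM2 (-0.62 ± 0.12), GNG11 (-0.53 ± 0.10) and CD209 (-4.31 ± 0.95). The junction and surface list had 5 genes called lower, of which 4 are named here. In the same average T, NK and B cell markers had a median of -0.89, with 9 of 15 called lower. Kupffer cell and macrophage markers had -0.32, with 2 of 17 positive, while hepatocyte and erythroid markers had 0.47 and 1.78. The part of these cell types in the values of the listed genes was not tested. With 1 library left out the calls of WNT9B, MMRN1, HEY1, ICAM2 and GNG11 were kept in 12 of 12 fits. Those of VCAM1 and CD209 were kept in 10, MAF in 9, RAMP2 in 7 and CTSL, ELK3 and TFEC in 5. FLI1 and TIE1 were kept in 3, CXCL12 in 2 and TMEM100 in 1. Without TMM scaling CXCL12 (0.22, adjusted p = 0.174) and TIE1 (0.13, adjusted p = 0.354) were not called. With Y-linked RNA as a covariate, 2 of the 56 calls of markers and listed genes that could be compared were kept, both of ICAM2. In the average over temperatures WNT9B was then 1.43 (adjusted p = 0.247), GNG11 -0.55 (adjusted p = 0.209) and STAB2 0.60 (adjusted p = 0.281), while ELK3 was -0.06 (adjusted p = 0.895). The covariate's effect is estimated from 1 library without Y-linked RNA, Bama cold replicate 2, against Bama cold replicates 1 and 3. The loss of a call under it therefore cannot by itself tell a smaller difference from a less certain one.

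**Figure D4:**
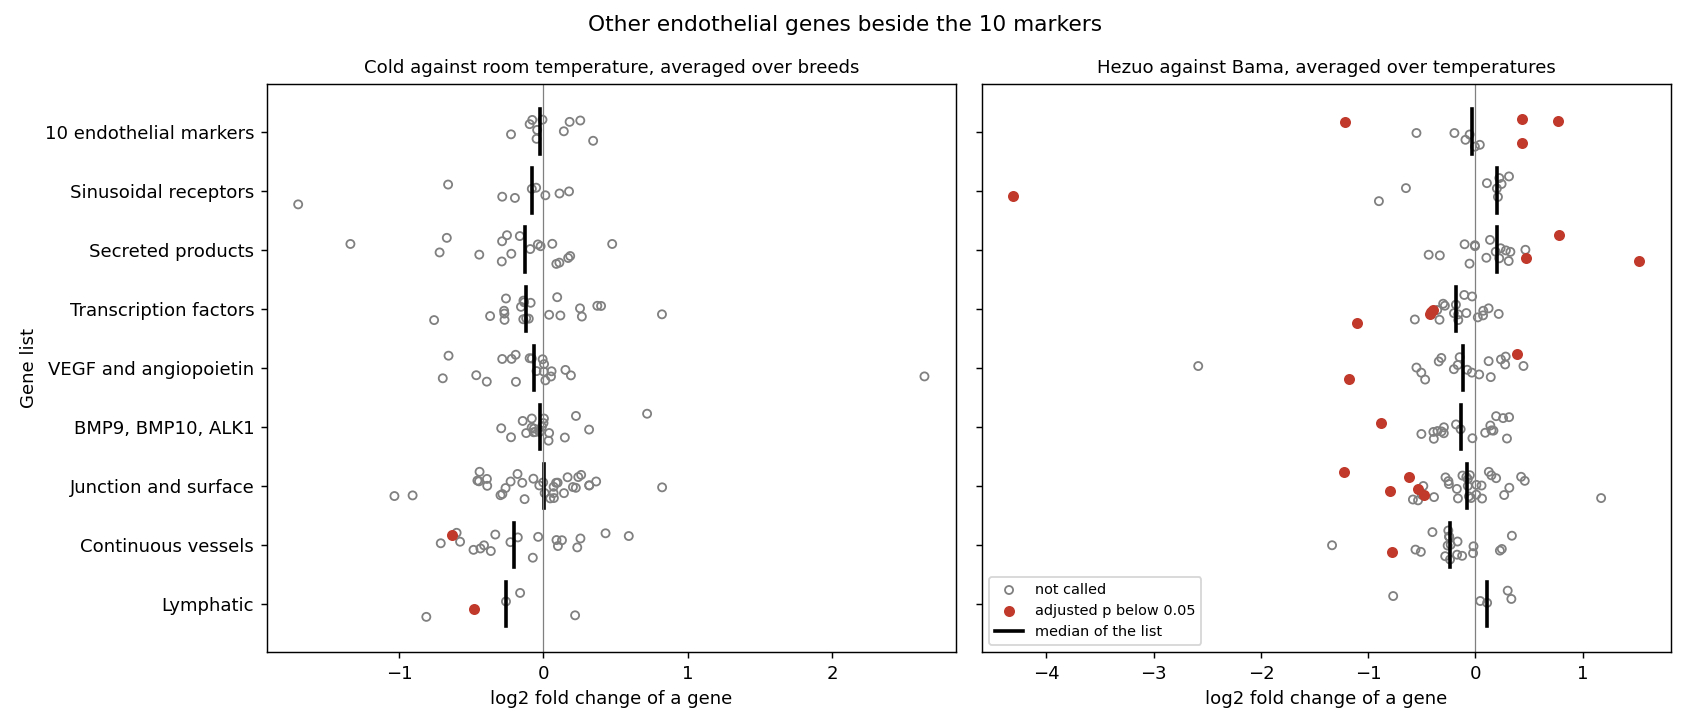
Log2 fold changes of single genes (circles) in the 10 markers and in 8 lists of other endothelial genes, for cold against room temperature averaged over breeds (left) and Hezuo against Bama averaged over temperatures (right), each panel with its own x axis. Red circles passed an adjusted p of 0.05 and black bars are list medians, which lie between -0.26 and 0.00 on the left.

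Circular RNAs from the same genes gave a further readout. A circRNA is a covalently closed transcript whose downstream splice donor was ligated to an upstream acceptor, and reads over that back-splice junction count it. The deposited table lists 20 circRNAs from 7 of the 10 genes and none from LYVE1, CDH5 or EMCN. They held 131 of 625980 back-splice reads (0.0209%), while the 10 genes held 0.216% of gene counts. Of the 20, 17 are made of annotated exons, 2 are antisense and 1 is a single exon.

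PECAM1 gave the most, 7 circRNAs with 47 reads, or 119.6 back-splice reads per 100000 gene counts. On this scale STAB2 had 29, ENG 25.7, TEK 15.09, KDR 14.2, VWF 12.35 and STAB1 1.43. The values of ENG and VWF each include an antisense circRNA with 2 reads. The reads of the 7 PECAM1 circRNAs together were 9, 9 and 7 in Hezuo cold livers, against 2, 0 and 3 in Hezuo room temperature livers. They were 1, 1 and 2 in Bama cold livers, against 3, 3 and 7 in Bama room temperature livers. The temperatures were apart within each breed, in opposite directions, on counts of 0 to 9, and these sums were looked at after the fact and not tested.

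The largest single circRNA was one of STAB2 with 24 reads, which the deposited table places on chromosome 5 from 80751970 to 80758773 (minus strand, genome build not given in the sources used here) with 468 spliced bases. It had 5, 2 and 1 reads in Hezuo cold livers, against 0, 0 and 0 in Hezuo room temperature livers, and 5, 0 and 3 in Bama cold livers, against 3, 4 and 1 in Bama room temperature livers. At such counts a library with 0 reads does not show that the circRNA is absent.

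Only 4 of the 20 passed the filter on low counts, 2 from STAB2 and 2 from PECAM1, and 0 of their 24 tests were called by edgeR, with 4 at an unadjusted p under 0.05 and a lowest adjusted p of 0.553. Of the 9032 circRNAs tested, the share called was 0.0886% for cold in Hezuo, 0.155% for cold in Bama and 0.199% for cold averaged over breeds. It was 0.454% for Hezuo against Bama at room temperature, 0.421% for Hezuo against Bama in the cold and 0.0886% for the breed difference in cold response.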

How the data were processed

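Liver RNA of 12 pigs (3 per group, numbered within groups by the labels) was analysed. The authors deposited estimated counts and FPKM per gene, and counts of back-splice reads per circRNA; the submitters' processing notes name fastp. Aligner, gene counter and genome build: not given in the sources used here. The RPM values the authors deposited for circRNAs were not used. Per the labels' protocols, RNA was depleted of ribosomal RNA and the second strand digested.

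Estimated counts were rounded, scaled by TMM and filtered with filterByExpr (minimum count 10, total 15). A robust edgeR 4.0.16 quasi-likelihood model (R 4.3.3) of 4 groups was fitted to all 12 libraries, with Benjamini-Hochberg adjustment over 13532 genes and a threshold of 0.05. SE is the absolute log2 fold change over the root of F. CircRNAs were tested likewise (at least 2 counts in 3 libraries and 10 in all). The model was tested on simulated data. DESeq2 1.42.0, scaling, filter, covariates and left-out libraries were alternatives.

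Named genes were the 10 markers, up to 4 called genes per list by smallest adjusted p, each endothelial list's largest increase and decrease in the cold with at least 1 CPM, the 5 genes most like the markers, and the most abundant circRNAs of each host. Members and lists were chosen with earlier results of these data known.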

Additional observations from a re-analysis of the deposited data

How the results depend on the processing

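No call of a marker changed direction under any alternative; 117 of 1300 alternative values changed sign where neither value was called, the largest main one being 0.31. Between Hezuo and Bama in the cold (2 markers called), 1 was called with no filter on low counts, 0 with only the groups compared, 1 with the replicate block, 0 with Y-linked RNA as a covariate, and 0 to 3 with 1 library left out; the 3, without Bama cold replicate 3, included VWF (adjusted p = 0.0497). The STAB2 call there was lost without Hezuo cold replicate 1 or 3 or Bama cold replicate 1 or 2 (adjusted p = 0.00548 to 0.0721 over the 12 fits). At room temperature (0 called), DESeq2 called 1 and the fit of only the groups compared 1. Averaged over temperatures (4 called), the covariate left 0 and leaving out 1 library 1 to 4. STAB2 was called in all 12 of the latter (adjusted p = 0.00234 to 0.0248), KDR in 6, VWF in 5 and TEK in 2. STAB2 stood alone without Hezuo cold replicate 1 or 3, Hezuo room temperature replicate 1 or Bama cold replicate 1 or 2, and with 1 other marker without Hezuo room temperature replicate 3 or Bama room temperature replicate 1 or 3.

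Without TMM the median of all genes shifted by -0.318 between Hezuo and Bama in the cold and by -0.216 at room temperature, and by 0.136 for cold in Bama. Between the breeds in the cold the markers called were then STAB2 (0.79, adjusted p = 0.0185) and VWF (-1.45, adjusted p = 0.047), and KDR was not called. Averaged over temperatures, 3 markers were then called, STAB2 and VWF as before and LYVE1 lower in Hezuo (-0.81, adjusted p = 0.0464). Over all groups, 3 of 18 same-number pairs correlated above 0.1 (-0.198 to 0.148), and 5 of 12 libraries were closest to their own number. Within Bama, cold and room temperature libraries of equal number correlated most (0.138, 0.148 and 0.022), and within Hezuo such pairs had -0.083, 0.079 and -0.014. Bama replicates 1 and 3 had Y-linked RNA in the cold and nearly none at room temperature, so equal numbers there are different pigs. Whether equal numbers mark some other pairing is not settled by these values. The covariate's effect rests on the Bama cold group, the one with libraries of both kinds, and there on replicate 2 against replicates 1 and 3. The circRNA alternatives gave 0 calls. With 3 pigs a group, the width of the intervals limits what can be seen in the cold responses.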
